A study of Arabidopsis thaliana with 12 samples.

Results

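TPP2 (AT4G20850, on chromosome 4) is the Arabidopsis gene for tripeptidyl peptidase II, and 1 of the 3439 probes of the array measured it. The platform annotation gave that probe TPP2 alone, and no other probe listed TPP2 among several genes, so 1 of the 692 probes with a single gene is described here. The gene was chosen because its level differed between ascorbate and water on these same arrays. That contrast is therefore given for TPP2 as a description, without a test.

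Total RNA of wild-type Arabidopsis thaliana, ecotype Columbia 0, was read on 12 one-channel arrays. In the water group, 6 samples had spent 8 h in water. In the ascorbate group, 6 samples had spent 4 h in water and then 4 h in 25 mM ascorbate at pH 5.5. Both groups thus shared the genotype, the total time and the first 4 h in water. Ascorbate, its pH, the solute load and the change of solution cannot be told apart, because the labels name no control that was moved to a solution without ascorbate. The labels number the samples 1 to 6 in each group and do not say whether these are separate plants or repeat readings, so the spread between them may be technical. They name no tissue, and none of the 8 green tissue markers or 3 root markers looked for had a single-gene probe.

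Tripeptidyl peptidase II is a very large serine peptidase of the subtilisin family that works mainly in the cytosol. It cuts tripeptides from the free amino end of peptides, such as those that the proteasome releases from proteins marked with ubiquitin, and other aminopeptidases then take the products down to amino acids. It is found in animals, fungi and plants, and its subunits assemble into long twisted strands.

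TPP2 was a dim probe that stood higher after ascorbate. As deposited, on a linear scale whose brightest probes stand near 100, its intensity in water was 0.141, 0.0943, 0.109, 0.187, 0.134 and 0.154 in samples 1 to 6. In ascorbate it was 0.179, 0.184, 0.306, 0.242, 0.212 and 0.349 in samples 1 to 6. Every ascorbate sample lay above the water sample of the same number, but the groups overlapped, because water sample 4 lay above ascorbate samples 1 and 2. Of the 36 possible pairs of an ascorbate and a water array, ascorbate was higher in 34. The means were 0.137 ± 0.0330 in water and 0.245 ± 0.0689 in ascorbate (SD, n = 6 each). In an RNA extract of whole material, more cells with the transcript and more transcript per cell cannot be told apart.

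The order of the 12 deposited values ran from ascorbate sample 6 at 0.349 and ascorbate sample 3 at 0.306 down to water sample 2 at 0.0943. In the middle of that order, water sample 4 at 0.187, ascorbate sample 2 at 0.184 and ascorbate sample 1 at 0.179 followed each other with gaps far below the SD of either group. No gap between neighbours in the order exceeded the ascorbate SD of 0.0689. The 2 widest, from 0.349 to 0.306 and from 0.306 to 0.242, exceeded the water SD of 0.0330, and both lay between ascorbate samples.

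The place of a probe on its own array does not depend on how arrays are scaled to each other. In water, 20.0%, 16.7%, 19.7%, 27.3%, 17.5% and 19.2% of all probes, those listed at 0 included, were dimmer than TPP2 in samples 1 to 6. In ascorbate the shares were 41.4%, 41.1%, 42.4%, 35.0%, 28.1% and 43.9%. By this measure the groups did not overlap, with means of 20.1% ± 3.79 and 38.6% ± 5.99 (SD, n = 6 each). The same held, with ascorbate higher, for 5.57% of the 3266 tested probes. Nothing is read from that share, because the gene was chosen on this contrast. The TPP2 separation rested on a narrow gap, since ascorbate sample 5 at 28.1% lay just above water sample 4 at 27.3%. Counted from the brightest probe, TPP2 took places 2499 to 2866 in water and 1930 to 2473 in ascorbate.

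By number, the gain in place from water to ascorbate was 21.3, 24.4, 22.7, 7.65, 10.6 and 24.7 percentage points for numbers 1 to 6. Numbers 4 and 5 thus moved less than the other 4 numbers. In number 4 the water sample was the highest of its group, and in number 5 the ascorbate sample was the lowest of its group.

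**Figure D1:**
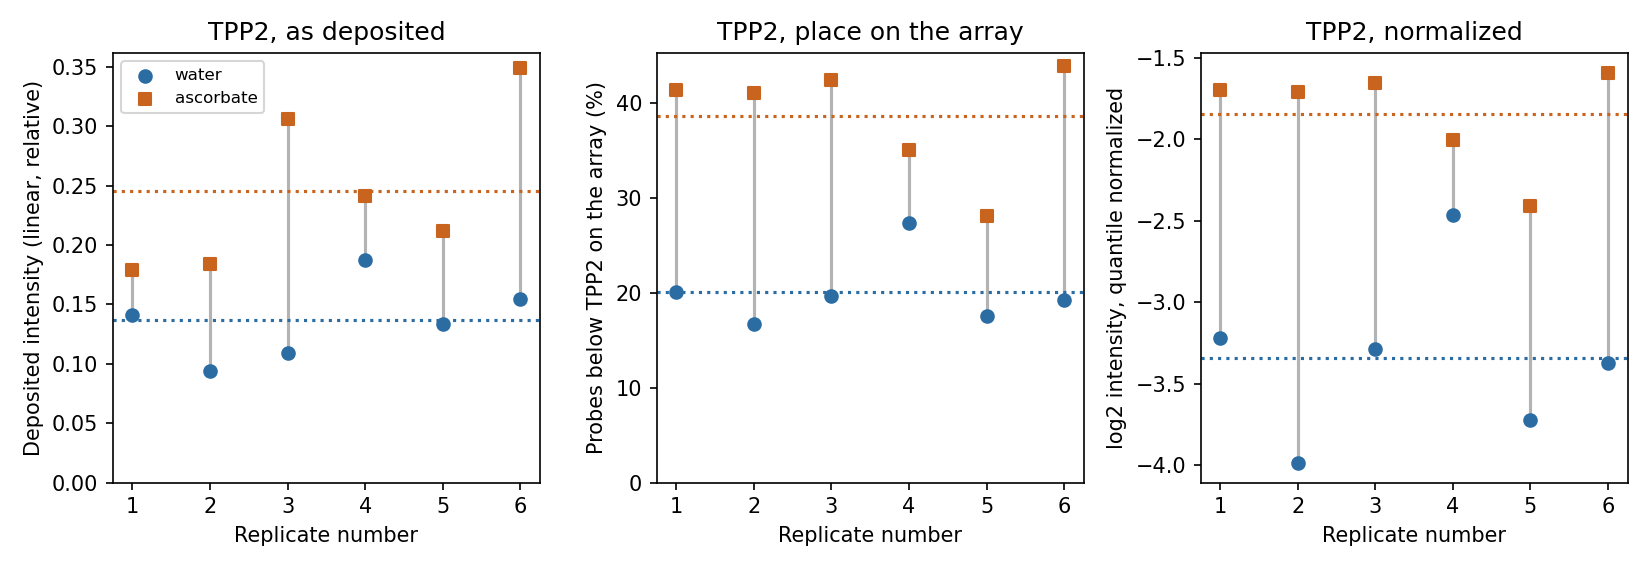
TPP2 on the 12 arrays by replicate number (horizontal axis), as deposited linear intensity (left), as the percentage of probes on the same array that were dimmer (middle) and as quantile normalized log2 intensity (right). Circles are water, squares are ascorbate, grey lines join samples of the same number, and dotted lines are the means of the 6 samples of a group. As deposited, water sample 4 at 0.187 lies above ascorbate samples 1 and 2, while in the other panels all ascorbate samples lie above all water samples. The right panel follows from the places in the middle panel, so these 2 panels are not separate observations.

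The floor used for dim values differed between arrays. It was the 1st percentile of the positive intensities of an array, a choice of processing and not a limit of detection, and lay between 0.00752 and 0.0545. TPP2 stood at 2.84 to 16.6 times the floor of its array in water and at 10.5 to 24.5 times in ascorbate, so none of its 12 values was raised to the floor. It was nearest to the floor on water arrays 5 and 6, at 2.96 and 2.84 times.

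Array medians moved with the groups as well. They were 0.405 to 0.485 on the water arrays and 0.252 to 0.419 on the ascorbate arrays, lowest on ascorbate arrays 1 and 2, and 11.5% to 14.2% of the probes of an array were listed at 0. Relative to the median of its array, TPP2 was at 0.301, 0.199, 0.267, 0.462, 0.280 and 0.319 in water samples 1 to 6. In ascorbate samples 1 to 6 it was at 0.709, 0.711, 0.800, 0.631, 0.505 and 0.840. On this ratio the lowest ascorbate sample, number 5, lay above the highest water sample, number 4. With each array centred on its median, 8.05% of the 3266 tested probes had all ascorbate samples above all water samples.

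For the comparison with all other probes, the arrays were quantile normalized on the log2 scale. TPP2 then read -3.22, -3.99, -3.29, -2.47, -3.72 and -3.37 in water samples 1 to 6, and -1.70, -1.71, -1.66, -2.0, -2.41 and -1.59 in ascorbate samples 1 to 6. The groups did not overlap, although water sample 4 and ascorbate sample 5 were only just apart. Quantile normalized values follow from the place of a probe on its array, so this repeats the separation by place and adds no second observation. The mean level was -3.34 ± 0.52 in water and -1.85 ± 0.31 in ascorbate (SD, n = 6 each), a difference of 1.50 ± 0.24 (SE), or 2.82-fold. Such a separation with ascorbate higher was found for 5.57% of the 3266 tested probes, and because the gene was chosen on this contrast nothing is read from that share. The share was 8.05% after centring each array on its median, where the TPP2 groups did not overlap either. A mean difference of at least 2-fold with ascorbate higher was found for 3.28% of the tested probes.

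The normalization itself moved the TPP2 values. Relative to the deposited log2 values, it lowered all 6 water samples, by 0.05 in number 4 to 0.82 in number 5. It raised ascorbate samples 1 and 2 by 0.79 and 0.73 and changed ascorbate samples 3 to 6 by -0.17 to 0.05. Between the deposited and the quantile normalized values, the TPP2 difference therefore changed most in numbers 1 and 2 and least in numbers 3 and 4.

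In number 1 the ascorbate minus water difference was 0.34 as deposited and 1.52 after quantile normalization. In number 2 the same difference was 0.96 and 2.27. In number 3 it was 1.49 and 1.63, and in number 4 it was 0.37 and 0.46. In number 5 it was 0.66 and 1.31, and in number 6 it was 1.18 and 1.78. All 6 numbers were positive on both scales, and number 4 had the smallest normalized difference, 1.38-fold.

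A difference of the same sign in all 6 numbers with ascorbate higher occurred in 15.1% of the tested probes on the normalized scale and in 7.04% as deposited. At least 2-fold higher in every number was met by 10 probes, 0.306% of those tested, and TPP2 was not among them because of number 4. Without numbers 1 and 2, whose ascorbate arrays had the lowest medians, the normalized difference was 1.21 ± 0.29 (SE, 4 samples per group). This setting was chosen after the data were seen.

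On the deposited values the mean TPP2 difference was 0.83 ± 0.22 (SE), where the median of all tested probes was -0.35. Set against that median the difference was 1.18, and centring each array on its median gave 1.23 ± 0.20 (SE) with the median of all probes at 0.04. After quantile normalization the median of all probes was 0.001. All 6 numbers stayed positive under each of the 6 scalings compared.

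**Figure D2:**
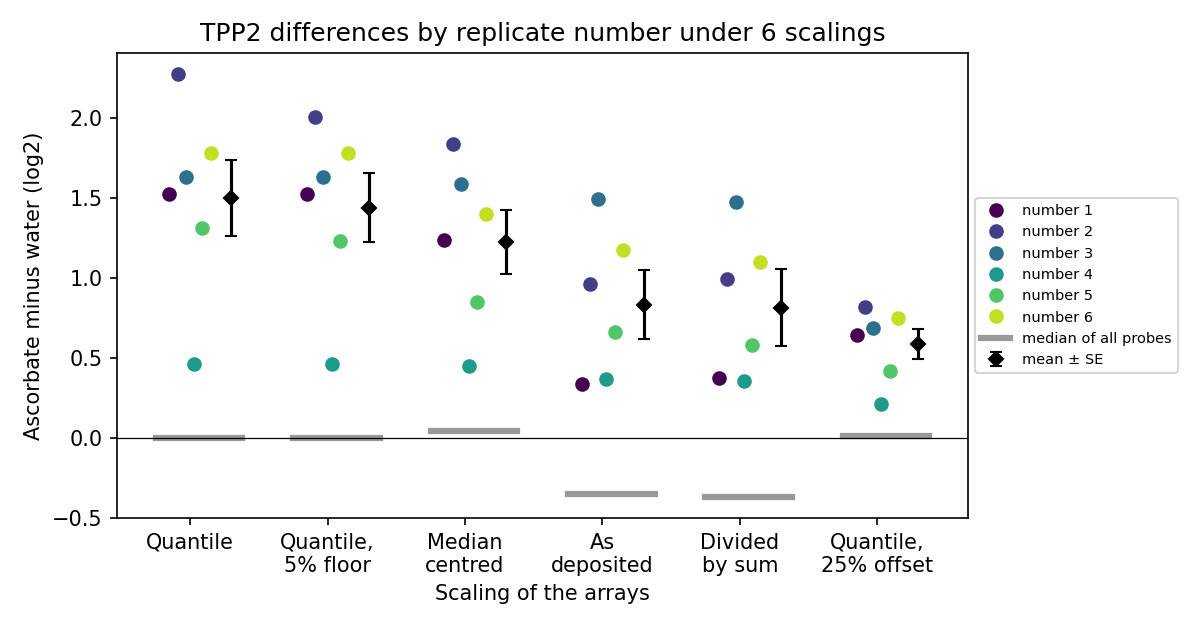
Ascorbate minus water difference of TPP2 in log2 units (vertical axis) for each replicate number under 6 scalings (horizontal axis). Coloured points are the 6 numbers, black diamonds the mean with its standard error from the limma fit, and grey bars the median difference of all tested probes. The mean lies between 0.59 with the 25th percentile offset and 1.50 after quantile normalization, and number 4 is among the 2 lowest under every scaling.

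A change of place on the array corresponds to different steps of intensity on different arrays. From the 20th to the 40th percentile, about the places of TPP2 in water and in ascorbate, the deposited intensity spanned 1.16 to 1.51 log2 units on the water arrays and 1.21 to 2.0 on the ascorbate arrays. The widest spans were 2.0 and 1.91, on ascorbate arrays 1 and 2. The part of these array shapes in the size of the TPP2 difference was not tested.

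The spread of TPP2 within groups was moderate for this array. Its within-group SD was 0.43 log2 units, against a median of 0.33 over the 2711 probes above 0 on all arrays, and 69.5% of those probes had a smaller SD. Its mean level of -2.60 over the 12 arrays was low, since only 8.19% of those probes had a lower mean and their median was -0.98.

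Across all probes, deviations of consecutive numbers within a group correlated most for numbers 5 and 6, at 0.73 in water and 0.74 in ascorbate. The other pairs correlated at 0.19 to 0.30, except ascorbate samples 1 and 2 at 0.09. Repeats of 1 RNA can therefore not be told apart from separate samples handled together. For TPP2, consecutive numbers were not reliably close. On the normalized log2 scale the gap within a pair was 0.76, 0.82 and 0.35 in water for numbers 1 and 2, 3 and 4, and 5 and 6. In ascorbate the gaps were 0.02, 0.35 and 0.82. In the same order, the pair means in water were -3.60, -2.88 and -3.55. Those in ascorbate were -1.71, -1.83 and -2.0, so gaps within a pair were as wide as those between pairs.

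The pair differences, ascorbate minus water, were 1.90, 1.05 and 1.55 after normalization and 0.65, 0.93 and 0.92 as deposited. Which pair showed the largest TPP2 difference thus depended on the scale. With consecutive numbers averaged the SE of the TPP2 difference was 0.24, as with 6 separate samples. With consecutive numbers as a random block, which applies 1 correlation of 0.697 to all probes, it was 0.46. The deviation of TPP2 from its group mean had the same sign in both groups for numbers 1, 3 and 5 and opposite signs for numbers 2, 4 and 6.

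Among all 3266 tested probes, the TPP2 difference was the 29th highest after quantile normalization, with 99.1% of probes lower. As deposited it was the 47th highest, with 98.6% lower, and the order after centring was the same as deposited. By limma, 17.1% of the tested probes differed between the groups at an adjusted p under 0.05, with 9.74% higher in ascorbate and 7.38% lower. Of these calls 56.9% were higher, against 21.7% as deposited and 72.7% after centring.

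**Figure D3:**
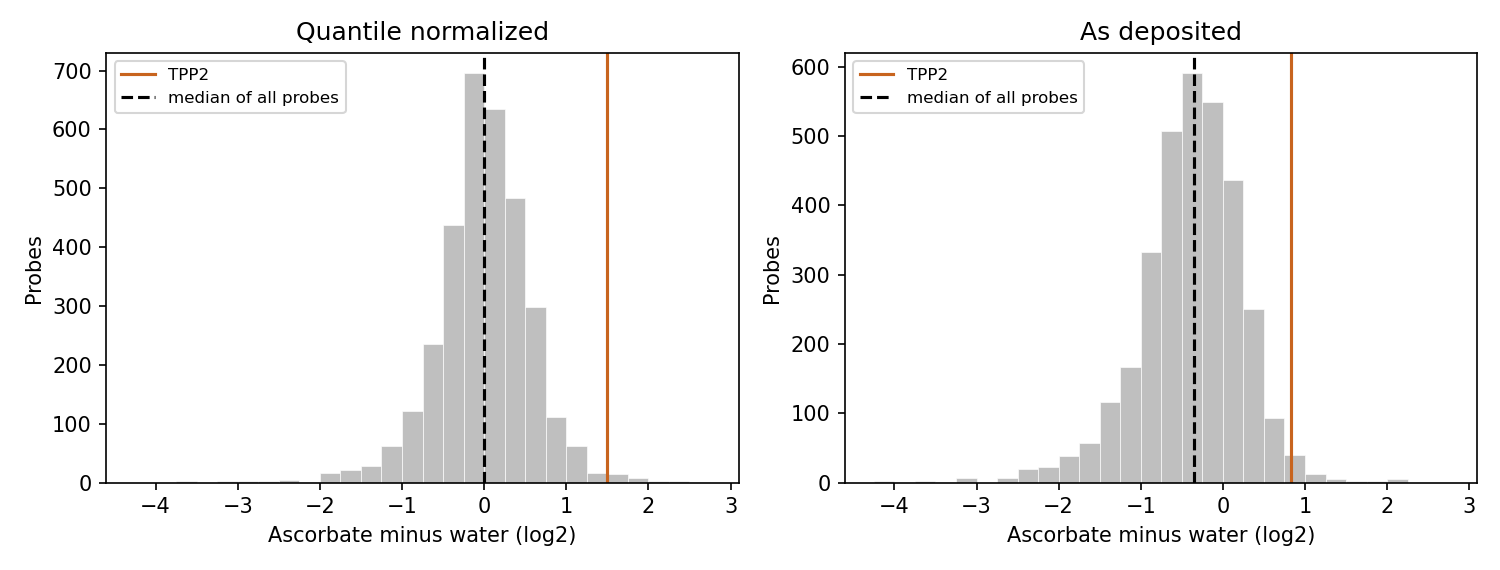
Number of tested probes (vertical axis) by ascorbate minus water difference in log2 units (horizontal axis, bins of 0.25), after quantile normalization (left) and as deposited (right). The orange line is TPP2 and the dashed line the median of all 3266 probes. TPP2 lies at 1.50 against a median of 0.001 on the left and at 0.83 against -0.35 on the right.

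Among the 653 tested probes with a single gene, TPP2 took the 4th place in the normalized difference. The 2 genes above and the 2 below it in that order are given for scale. AT5G52660, above it at 1.52 ± 0.42 (SE), was at 0.45 as deposited. AT5G66050, just above it at 1.50 ± 0.51 (SE), was at 0.34 as deposited. It had a value of 0 in sample 1 of water and in sample 3 of ascorbate. Its water sample 3 at 0.00529 was raised to the floor as well. FATB, the gene of a fatty acyl-ACP thioesterase that ends plastid fatty acid synthesis, came just below at 1.46 ± 0.61 (SE). Its normalized level spread by an SD of 1.32 in water and 0.88 in ascorbate. Water sample 4 of FATB read 0.00209 and was raised to the floor. It stood at -5.92, against -4.02 to -1.95 in the other water samples. Without that sample the FATB difference was 1.0 ± 0.48 (SE). Ascorbate sample 4 was also the lowest of its group, and without it the FATB difference was 1.77 ± 0.56 (SE). With all samples it was 0.83 as deposited. AT1G11470 followed at 1.33 ± 0.26 (SE) and was at 0.56 as deposited.

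The profiles of the other single-gene probes were set against that of TPP2 over the 12 arrays. Likeness was the root mean square difference of the normalized log2 values after each probe's own mean was removed, over the 548 other probes above 0 on all arrays. The treatment contrast is part of this measure, so genes that differ between the groups by a similar amount are favoured. The arrays are also shared, and the values below are a description.

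AT1G21660 was closest, at 0.37 log2 units from TPP2. As deposited it read 0.377, 0.264, 0.322, 0.379, 0.274 and 0.289 in water and 0.332, 0.404, 0.521, 0.574, 0.467 and 0.521 in ascorbate, samples 1 to 6. As deposited, its lowest ascorbate sample, number 1, overlapped the water group. On the normalized scale its groups did not overlap, and its water samples 2, 5 and 6 were the lowest, at -2.26, -2.29 and -2.21. AT1G21660 was also first by this measure on the deposited values.

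The next 4 were AT5G42680 at 0.43, AT3G44050 at 0.45, AT3G44020 at 0.47 and AT3G51510 at 0.48 log2 units from TPP2. Their normalized differences between ascorbate and water lay between 0.97 and 1.13, below the 1.50 of TPP2. Of the 5 genes, AT1G21660, AT5G42680 and AT3G44020 were among the closest 5 on the deposited values as well. AT3G44050 and AT3G51510 fell to places 14 and 16 there.

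The shape within groups also set the genes apart. AT5G42680 shared the dip in water sample 2, at -1.98 against -1.49 to -0.90 in the other water samples. In AT3G44020 the 6 water samples lay within -0.75 to -0.43, with no dip in sample 2 and no peak in sample 4. AT3G51510 differed from TPP2 mainly in ascorbate sample 2, at -1.52 against -0.55 to -0.41 in the other ascorbate samples.

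**Figure D4:**
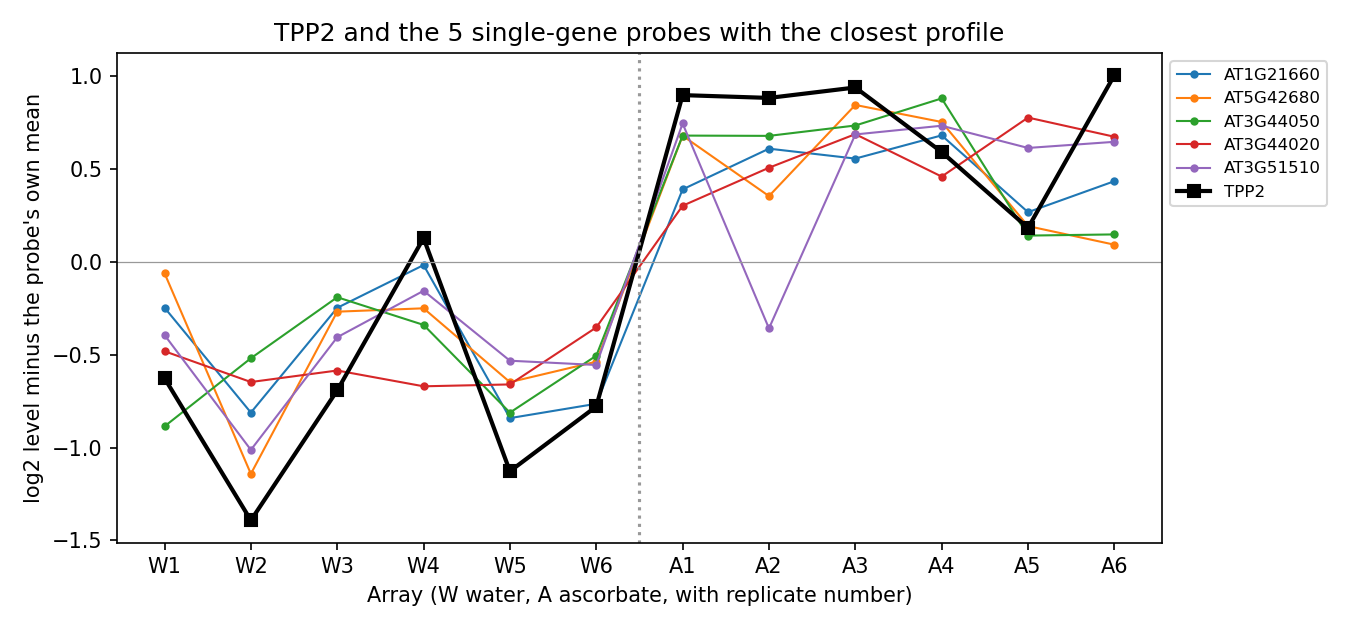
Normalized log2 level minus the probe's own mean over 12 arrays (vertical axis) on each array (horizontal axis, W for water and A for ascorbate with the replicate number) for TPP2 (black squares) and the 5 single-gene probes with the closest profile. TPP2 has the widest swing, from -3.99 in water sample 2 to -1.59 in ascorbate sample 6 before its mean is removed, and AT3G51510 departs in ascorbate sample 2.

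Few other genes of protein breakdown could be found by name, because most single-gene probes carry only a locus, with no description, in the tables used here. The array may hold more such genes. Names and synonyms were searched for subtilases, the proteasome, peptidases of short peptides, organelle proteases, other proteases and the ubiquitin system. Besides TPP2, 1 single-gene probe matched, that of SPPA (AT1G73990), a plastid protease named signal peptide peptidase. Whether partner enzymes that act before or after tripeptidyl peptidase II in peptide breakdown moved with TPP2 was therefore not measurable by single-gene probes named this way.

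SPPA gave almost no signal. It was listed at 0 on 5 of the 6 water arrays and 3 of the 6 ascorbate arrays. Its positive values were 0.000741 in water sample 3 and 0.0451, 0.0203 and 0.00997 in ascorbate samples 1, 2 and 5. SPPA did not pass the test (limma adjusted p 0.30 over all tested probes), and no fold is given because most of its values lay at the floor. With the replicate number as a block the adjusted p was 0.26.

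A further 11 probes listed several genes of which at least 1 matched the search, and they are not named for that reason. Of the 10 that were tested, 1 was higher and 1 lower in ascorbate at a limma adjusted p under 0.05, and 8 did not pass. The 1 higher and 1 lower stand beside 9.74% and 7.38% of all tested probes in the same fit without a block. The fit blocked by number called 2 higher and 3 lower, where it called 796 of the 3266 tested probes, 455 of them higher. With consecutive numbers averaged 0 passed, where limma called 1 of all tested probes and 501 had an unadjusted p under 0.05. In the fit without a block, the median difference of the 10 probes was -0.02, against 0.001 over all tested probes. The 10 ranged from -0.95 to 1.11.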

How the data were processed

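The authors deposited 1 intensity per probe and array on a linear scale, per the file headers as a value table of 12 columns. For scanner, background correction and scaling, the method was not given in the sources used here. From these values, each array's values at or under the 1st percentile of its positive values were raised to that percentile, log2 was taken, and the arrays, whose medians differed by up to 0.94, were quantile normalized. Tests left out 173 probes that read 0 on every array. Ascorbate was compared with water by lmFit and eBayes in limma 3.58.1 (R 4.3.3), two-sided, with Benjamini-Hochberg adjustment over 3266 probes at a threshold of 0.05. The number of arrays limits the precision.

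Genes came from the platform annotation, where 692 probes had 1 gene, 870 several and 1877 none, and RefSeq names of assembly TAIR10.1 were found for 690. The array names no build, so no coordinates are given. The named genes were TPP2, the 2 single-gene probes above and below it in the difference, the 5 of closest profile, and the proteolysis genes found by keyword. The gene, the lists and the rules were chosen with earlier results of these data known. The search of probes with several genes was added later.

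Same-numbered samples deviated together across all probes, with correlations of 0.35, 0.36, 0.56, 0.56, 0.53 and 0.53 for numbers 1 to 6, above the limit of 0.1. Correlations between water and ascorbate samples of different numbers were not computed, so whether the numbers pair the samples is not known. A fit with the number as a block was an alternative. Within groups, consecutive numbers correlated at 0.19 to 0.73 in the water group and 0.09 to 0.74 in the ascorbate group. Other alternatives were other scalings, floors and filters, averaged or blocked consecutive numbers, and each sample left out. The script was tested on simulated data.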

Additional observations from a re-analysis of the deposited data

Results flagged for a closer look

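Among 22 groups of 6 normalized values, from the 11 genes named here, 1 sample lay far from the other 5 in 2 groups, and chance flags about 5% of groups. For FATB, ascorbate sample 4 was at -3.91 log2 intensity, against -2.19 to -1.50 in the other ascorbate samples. For AT3G51510, ascorbate sample 2 was at -1.52, against -0.55 to -0.41. No TPP2 value stood apart in this way.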

How the results depend on the processing

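The TPP2 difference was positive in all 22 alternatives, from 0.59 to 1.67 against 1.50. The gene was chosen on this contrast, so the shared sign is a description and not support. The replicate block and the averaged or blocked consecutive numbers return 1.50 by design and can change only the SE. It moved by more than the within-group SD as deposited (0.83), with each array divided by its sum (0.81) and with the 25th percentile offset (0.59), which shrinks differences of dim probes by construction. It was 1.38 to 1.67 with 1 sample left out, lowest without water sample 2 and highest without water sample 4. Centring gave 1.23, the 5th percentile floor 1.44 and the filter on probes above 0 on all arrays 1.39. With the replicate block the SE of the TPP2 difference was 0.22. The block changed no call for SPPA, the 1 named gene that was tested. SPPA passed in none of 21 alternatives (limma adjusted p 0.22 to 0.85). Its fitted log2 difference was 0.77 after quantile normalization. That value rested on ascorbate samples 1 and 2, at -3.18 and -4.05, with all other samples at the floor of -5.92. Without ascorbate sample 1 it was 0.38. The difference was -0.13 as deposited and -0.15 with arrays divided by their sum, where the floors differed between arrays. No direction is read from these values of SPPA. It had no value in the filter on probes above 0 or without numbers 1 and 2, where all its values lay at the floor. Calls over all probes, 559, numbered 796 with the block, 368 with arrays divided by their sum, 148 with consecutive numbers as a random block and 1 with consecutive numbers averaged (501 at an unadjusted p under 0.05). With 1 sample left out they numbered 396 to 584. The cause of these changes was not tested. Without a detection measure in the table, how far a dim probe such as TPP2 stands above background is not known.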
